A study of Drosophila melanogaster with 18 samples.

Results

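GAF binding at gene promoters was compared between mitotic and interphase embryos of *Drosophila melanogaster* by counting protein-coding genes rather than peaks. A gene was called bound in a stage when a transcription start site (TSS) of any of its transcripts lay within 100 bp of a GAF ChIP-seq peak of that stage. Of the 13986 protein-coding genes of the dm6 annotation, with 19649 TSSs, 1616 were bound in at least 1 stage and 12370 in neither. These 1616 genes, divided into 640 bound in mitosis and interphase (mitotically retained genes), 971 bound in interphase only and 5 bound in mitosis only, are described here.

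All embryos were wild type yw embryos aged up to 2 h 30 min after egg laying (the labels start the window at 1 h, the methods of the study later), about 1000 per sample, and were sorted into mitotic and interphase embryos by staining of a mitotic histone mark, phosphorylated serine 10 of histone H3, before chromatin immunoprecipitation. The mitotic GAF list pooled 2 samples and the interphase GAF list 3. A mitotic and an interphase list of peaks of histone H4 acetylated on lysine 8 (H4K8ac), a mark of active chromatin, came from embryos of the same kind. The lists hold only the start and end of each peak on pooled coverage, so the reads behind a peak and the spread between samples are not known, no test over samples was possible, and the 95% intervals given below (Wilson for shares, Newcombe for differences, order statistics for medians) cover the counting of genes alone, which are not independent replicates.

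GAF, the GAGA-associated factor encoded by *Trl*, is a zinc-finger protein that binds GA repeats, opens chromatin and is found at promoters with paused RNA polymerase II, among them those of heat shock and developmental control genes. Most transcription factors leave chromosomes when they condense in mitosis, while part of the GAF pool stays. A promoter that keeps such a factor through division is said to be bookmarked, and the question of the comparison is which genes those are.

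In mitosis 645 genes (4.61% of all protein-coding genes) were bound, against 1611 genes (11.5%) in interphase. The mitotically retained genes were 4.58% and the interphase-only genes 6.94% of all protein-coding genes. Of the interphase-bound genes, 39.7% were retained (37.4 to 42.1%). At a protein-coding TSS lay 651 of 1839 mitotic peaks (35.4%, 33.2 to 37.6%) and 1748 of 4970 interphase peaks (35.2%, 33.9 to 36.5%), shares that differed by less than their intervals. Every one of the 640 nuclear genes bound in mitosis was also bound in interphase, and all 640 had a TSS that lay near peaks of both lists.

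The 5 mitosis-only genes all lay on the mitochondrial genome. They were mt:CoI, mt:CoII and mt:CoIII, which encode subunits of cytochrome c oxidase, mt:ATPase6, which encodes a subunit of ATP synthase, and mt:Cyt-b, which encodes cytochrome b. The mitotic list held 10 peaks on the mitochondrial genome, covering 4650 of 19524 bp, and the interphase list held 0. The 5 mitotic peaks beside these genes held 0 GAGAG motifs. All 5 TSSs also lay within 100 bp of a peak in the mitotic and in the interphase H4K8ac list, although mitochondrial DNA carries no histones. No nuclear gene was bound in mitosis alone, and the rest of the description concerns nuclear genes.

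The size of the retained class depended on which list defined retention. The authors' own list of retained GAF peaks held 2362 peaks, of which 1527 overlapped a peak of the deposited mitotic list. By that list 1177 genes were retained and 512 were bound in interphase only (69.7% retained of 1689). It contained all 640 genes retained by the rule used here, 459 of the 971 interphase-only genes and 78 genes that the rule placed in neither class. The counts below therefore describe promoters with a peak of their own in the mitotic list, and an interphase-only gene is a gene without such a peak, not a gene shown to have lost GAF.

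The following stretches of 200 bases end at the base before the TSS and are shown because they belong to genes described below that differ in their number of GAF motifs. They were read 5′ to 3′ on the strand of the gene from the RefSeq copy of the dm6 genome (Release 6), with every GAGAG, or its complement CTCTC, in capitals. The first 4 belong to retained genes. They are *tll* (chr3R:30852115-30852314, plus strand), a terminal gap gene that encodes a nuclear receptor, *scyl* (chr3L:11252107-11252306, plus strand), which encodes a regulator of growth and cell death, *Delta* (chr3R:19326218-19326417, minus strand), which encodes a Notch ligand, and *Hsp70Ba* (chr3R:12467777-12467976, minus strand), which encodes a heat-inducible chaperone.

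tll: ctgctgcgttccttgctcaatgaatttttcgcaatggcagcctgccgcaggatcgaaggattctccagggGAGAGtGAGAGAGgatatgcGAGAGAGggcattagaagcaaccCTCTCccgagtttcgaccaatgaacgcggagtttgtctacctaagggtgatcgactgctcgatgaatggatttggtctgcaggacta

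scyl: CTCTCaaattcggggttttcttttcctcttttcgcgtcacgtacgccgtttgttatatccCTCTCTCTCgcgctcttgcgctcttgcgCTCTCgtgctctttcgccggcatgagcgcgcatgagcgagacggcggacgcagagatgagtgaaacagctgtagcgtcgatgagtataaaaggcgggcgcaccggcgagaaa

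Delta: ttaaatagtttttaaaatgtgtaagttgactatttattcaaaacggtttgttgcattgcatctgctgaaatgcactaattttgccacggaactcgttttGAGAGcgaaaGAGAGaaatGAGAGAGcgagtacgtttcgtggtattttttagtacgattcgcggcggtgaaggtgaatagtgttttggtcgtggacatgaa

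Hsp70Ba: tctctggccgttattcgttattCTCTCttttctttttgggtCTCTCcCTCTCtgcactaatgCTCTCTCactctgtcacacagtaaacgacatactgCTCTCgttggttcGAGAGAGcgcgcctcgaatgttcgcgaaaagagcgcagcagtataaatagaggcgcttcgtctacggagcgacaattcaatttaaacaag

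The other 4 belong to interphase-only genes. They are *Hsp26* (chr3L:9377428-9377627, minus strand), which encodes a small heat shock protein, *Antp* (chr3R:6999229-6999428, minus strand), a homeotic gene, *aos* (chr3L:16483651-16483850, minus strand), which encodes a secreted inhibitor of the EGF receptor, and *tin* (chr3R:21378777-21378976, plus strand), which encodes a homeodomain protein needed for heart formation.

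Hsp26: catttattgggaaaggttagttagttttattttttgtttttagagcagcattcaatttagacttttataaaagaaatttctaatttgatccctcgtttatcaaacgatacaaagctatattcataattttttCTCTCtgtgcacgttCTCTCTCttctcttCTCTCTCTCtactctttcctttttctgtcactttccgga

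Antp: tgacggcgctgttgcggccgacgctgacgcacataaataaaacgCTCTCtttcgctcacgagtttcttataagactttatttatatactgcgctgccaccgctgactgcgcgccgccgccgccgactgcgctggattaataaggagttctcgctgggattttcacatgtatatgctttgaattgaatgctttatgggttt

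aos: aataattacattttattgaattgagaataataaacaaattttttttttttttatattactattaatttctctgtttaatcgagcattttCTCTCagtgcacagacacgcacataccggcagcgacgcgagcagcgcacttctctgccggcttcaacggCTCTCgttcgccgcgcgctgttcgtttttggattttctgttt

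tin: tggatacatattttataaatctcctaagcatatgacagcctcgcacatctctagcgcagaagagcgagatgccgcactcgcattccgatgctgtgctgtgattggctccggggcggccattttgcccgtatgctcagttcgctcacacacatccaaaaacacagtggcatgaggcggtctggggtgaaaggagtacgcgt

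Counted on both strands without overlap, the retained promoters held 4 (*tll*), 3 (*scyl*), 3 (*Delta*) and 6 (*Hsp70Ba*) motifs, against 3 (*Hsp26*), 1 (*Antp*), 2 (*aos*) and 0 (*tin*) in the interphase-only promoters. The *tll* TSS lay inside a mitotic peak of 550 bp and an interphase peak of 750 bp. *Hsp70Ba* had a mitotic peak of 550 bp and an interphase peak of 850 bp. *Hsp26*, whose 3 motifs equal those of *scyl* in number, had an interphase peak of 700 bp, and the nearest mitotic peak lay 3374 bp from its TSS.

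Of the 4 peak, motif and gene properties plotted, the retained share varied most with the width of the interphase promoter peak. Apart from the repeated histone genes, which are described below, none of 226 genes whose widest interphase promoter peak measured 100 to 250 bp was retained (0 to 1.67%). The share was 2.84% of 282 genes at 300 to 400 bp, 36.2% of 381 genes at 450 to 600 bp, 64.7% of 365 genes at 650 to 900 bp and 72.1% of 312 genes at 950 bp or more. With the histone genes, 6 of 244 genes (2.46%) were retained at 100 to 250 bp, all 6 of them histone genes, and 10.7% of 307 at 300 to 400 bp. At retained promoters the median width was 350 bp in mitosis and 750 bp in interphase, and at interphase-only promoters it was 400 bp in interphase. The lists hold no peak heights, so a loss of binding cannot be told apart from a fall of coverage below the threshold of the peak calling.

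The retained class also depended on where the mitotic peak ended. Among interphase-bound genes, 482 had a TSS inside a mitotic peak, 107 had one at 1 to 50 bp and 51 at 51 to 100 bp from it. A further 45 genes had one in the next 50 bp, 32 in the 50 bp after those and 88 from there to 500 bp. Of the 971 interphase-only genes, 169 (17.4%) had a promoter peak that overlapped a mitotic peak more than 100 bp from the TSS. The *aos* promoter was such a case, with an interphase peak of 1000 bp that overlapped a mitotic peak 351 bp from the TSS. Another 727 genes (74.9%) had no mitotic peak at the promoter peak or over the gene.

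At genes with more than 1 promoter, retention was often partial. Of 210 genes with 2 or more interphase promoter peaks, 57 (27.1%) had a mitotic peak over all of them, 108 (51.4%) over some and 45 (21.4%) over none. In 153 of the 640 retained genes, an interphase-bound TSS had no mitotic peak within 100 bp. The ecdysone-induced nuclear receptor gene *Eip75B* had a mitotic peak (17999451 to 18000051 on 3L) inside 1 of its 4 interphase promoter peaks (17999301 to 18000201). *chrb*, the paralog of *scyl*, had a mitotic peak at 1 of its 2 TSSs and an interphase peak at each. Genes with 2 or more interphase promoter peaks were retained at 62.9% (132 genes) and those with 1 at 36.3% (508 of 1401 genes). A mitotic peak at any TSS makes a gene retained, so more promoter peaks give more chances. The 2 shares are per gene and do not compare single promoters.

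**Figure D1:**
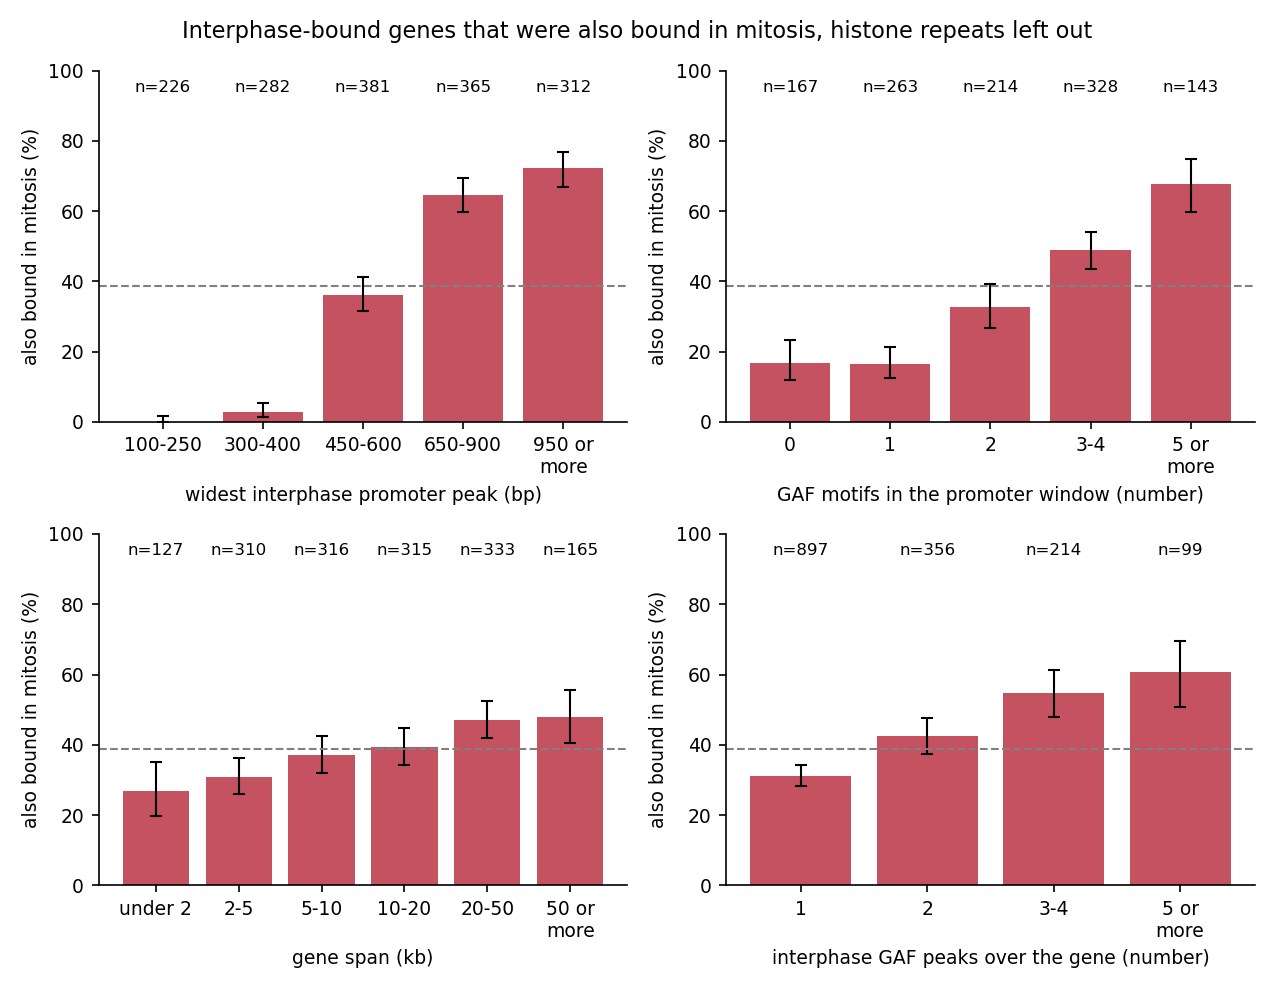
Share of interphase-bound genes that were also bound in mitosis (y axes, %), by the width in bp of the widest interphase promoter peak, by the number of GAF motifs in the promoter window (398 retained and 717 interphase-only genes), by gene span in kb and by the number of interphase peaks over the gene, with the histone repeats left out of every panel. Bars are shares, error bars 95% Wilson intervals and n the number of interphase-bound genes in each bin. The dashed line is the share over all interphase-bound genes apart from the histone repeats (38.8%). It is drawn in the motif panel too, which holds only part of these genes. The share was 0% in the narrowest and 72.1% in the widest bin of peak width.

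Genes that pattern the embryo and set cell fates were bound more often than genes at large and were more often retained. Over 8 lists of patterning and fate genes, 40 of 91 genes were retained, 23 were bound in interphase only and 28 in neither stage. In interphase 69.2% of them were bound, against 11.5% of all protein-coding genes, and 63.5% of the bound ones were retained, against 39.7%. The lists were drawn up from textbook knowledge of gene function with earlier results of these data known, so their counts are a description.

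Among 7 gap genes, which divide the embryo into broad regions, 5 were retained (*hb*, *Kr*, *kni*, *knrl* and *tll*). *hkb* was bound in interphase only, by a peak of 100 bp, and *gt* in neither stage. Of the retained gap genes *Kr* had the narrowest mitotic peak, 150 bp within an interphase peak of 500 bp. Pair-rule genes, which act in alternate segments, were retained in 3 of 10 cases (*eve*, *slp1* and *slp2*), while *hry*, *run*, *odd* and *ftz-f1* were bound in interphase only. The interphase peak at *run* measured 800 bp, wider than those of the 3 retained pair-rule genes (450 to 650 bp).

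Of 12 segment polarity genes 4 were retained, among them *en*, with a mitotic peak of 700 bp and an interphase peak of 1000 bp, and *ptc*, the Hedgehog receptor gene, with 600 bp and 1400 bp. *wg* and *hh*, which encode the secreted Wingless and Hedgehog signals, had no GAF peak within 100 bp of a TSS in either stage. Of 18 dorsoventral genes, 7 were retained and 5 bound in interphase only. *sna*, the mesoderm repressor gene, was retained, whereas *twi*, which encodes the activator upstream of it, had an interphase peak of 550 bp, and the mitotic peak nearest to any of its TSSs lay 50923 bp away.

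Homeotic genes, which give segments their identity, were retained in 4 of 8 cases. *Ubx* and *abd-A* had promoter peaks of 250 and 300 bp in mitosis, against 550 and 600 bp in interphase. *Dfd* and *Abd-B* were the others. *Scr* and *Antp* were bound in interphase only, by peaks of 650 and 600 bp, and *lab* and *pb* in neither stage. Head patterning genes had 4 retained members of 8 (*btd*, *ems*, *oc* and *cnc*) and mesoderm genes 5 of 12, including the FGF receptor gene *htl* and the muscle regulator gene *Mef2*. Neural precursor genes were retained in 8 of 16 cases, among them the proneural genes *ac* and *sc* and the Sox gene *D*. Their median interphase promoter peak of 1000 bp was the widest of the 8 lists.

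Signalling genes were bound in interphase in 51.2% of cases, against 11.5% of all protein-coding genes. Over 5 lists, 26 of 82 genes were retained, 16 were bound in interphase only and 40 in neither stage. In the Notch pathway (7 retained and 7 interphase-only of 22) the receptor gene *N*, the ligand genes *Delta* and *Ser*, *neur*, which encodes a ubiquitin ligase that activates ligands, the inhibitor gene *numb* and *fng*, which encodes a glycosyltransferase that modifies the receptor, were retained. Of the target genes in the E(spl) cluster 1 was retained (*E(spl)m7-HLH*) and 5 were bound in interphase only. Their interphase peaks measured 150 to 400 bp, against 950 bp at *E(spl)m7-HLH*. *Su(H)*, which encodes the DNA-binding effector of the pathway, and its corepressor gene *H* were bound in neither stage.

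The EGF and FGF pathways had 9 retained genes of 20. These were the receptor genes *Egfr* and *htl*, the ligand genes *spi* and *bnl*, the protease gene *rho*, the adaptor gene *drk*, the antagonist gene *sty* and the ETS factor genes *pnt* and *aop*. The ligand genes *vn* and *Krn*, the inhibitor gene *aos* and the adaptor gene *stumps* were bound in interphase only. In the BMP pathway the ligand gene *dpp*, the receptor gene *tkv*, the repressor gene *brk* and the inhibitory Smad gene *Dad* were retained (4 of 14), and *sog*, *shn* and *cv-2* were bound in interphase only. *Mad* and *Med*, which encode the Smads that carry the signal to the nucleus, were bound in neither stage. The Wnt pathway had the lowest bound share of the 5, with 5 of 19 genes, of which *fz*, *fz2*, *nkd* and *sgg* were retained and *arm* was bound in interphase only. No gene for a Wnt ligand was bound in either stage, nor were *Axn*, *Apc* and *pan*, which encode the scaffold proteins and the TCF factor. In the JAK-STAT pathway the ligand gene *upd1* and the receptor gene *dome* were retained and *upd2* was bound in interphase only, of 7 genes, while the kinase gene *hop* and *Stat92E* were bound in neither stage.

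Counted as 1 group without double counting, the patterning, fate and signalling genes were retained in 61 of 97 interphase-bound cases (62.9%), against 579 of 1514 (38.2%) for all other interphase-bound genes, a difference of 24.6 points (14.4 to 33.9). Their widest interphase promoter peak had a median of 700 bp, against 550 bp. Within bins of that width, read after the data were seen, the shares were 0 of 5 against 2.51% of all other genes at 100 to 250 bp, 0 of 9 against 11.1% at 300 to 400 bp, 12 of 25 (48.0%) against 35.8% at 450 to 600 bp, 31 of 35 (88.6%) against 62.1% at 650 to 900 bp, and 18 of 23 (78.3%) against 71.6% at 950 bp or more. At 650 to 900 bp the difference was 26.5 points (11.1 to 35.2). In the other 4 bins its interval included 0, and in the 2 narrowest, whose other retained genes were mostly histone genes, it had the other sign (-2.51 and -11.1 points, and 0 and -2.93 points without the histone repeats).

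**Figure D2:**
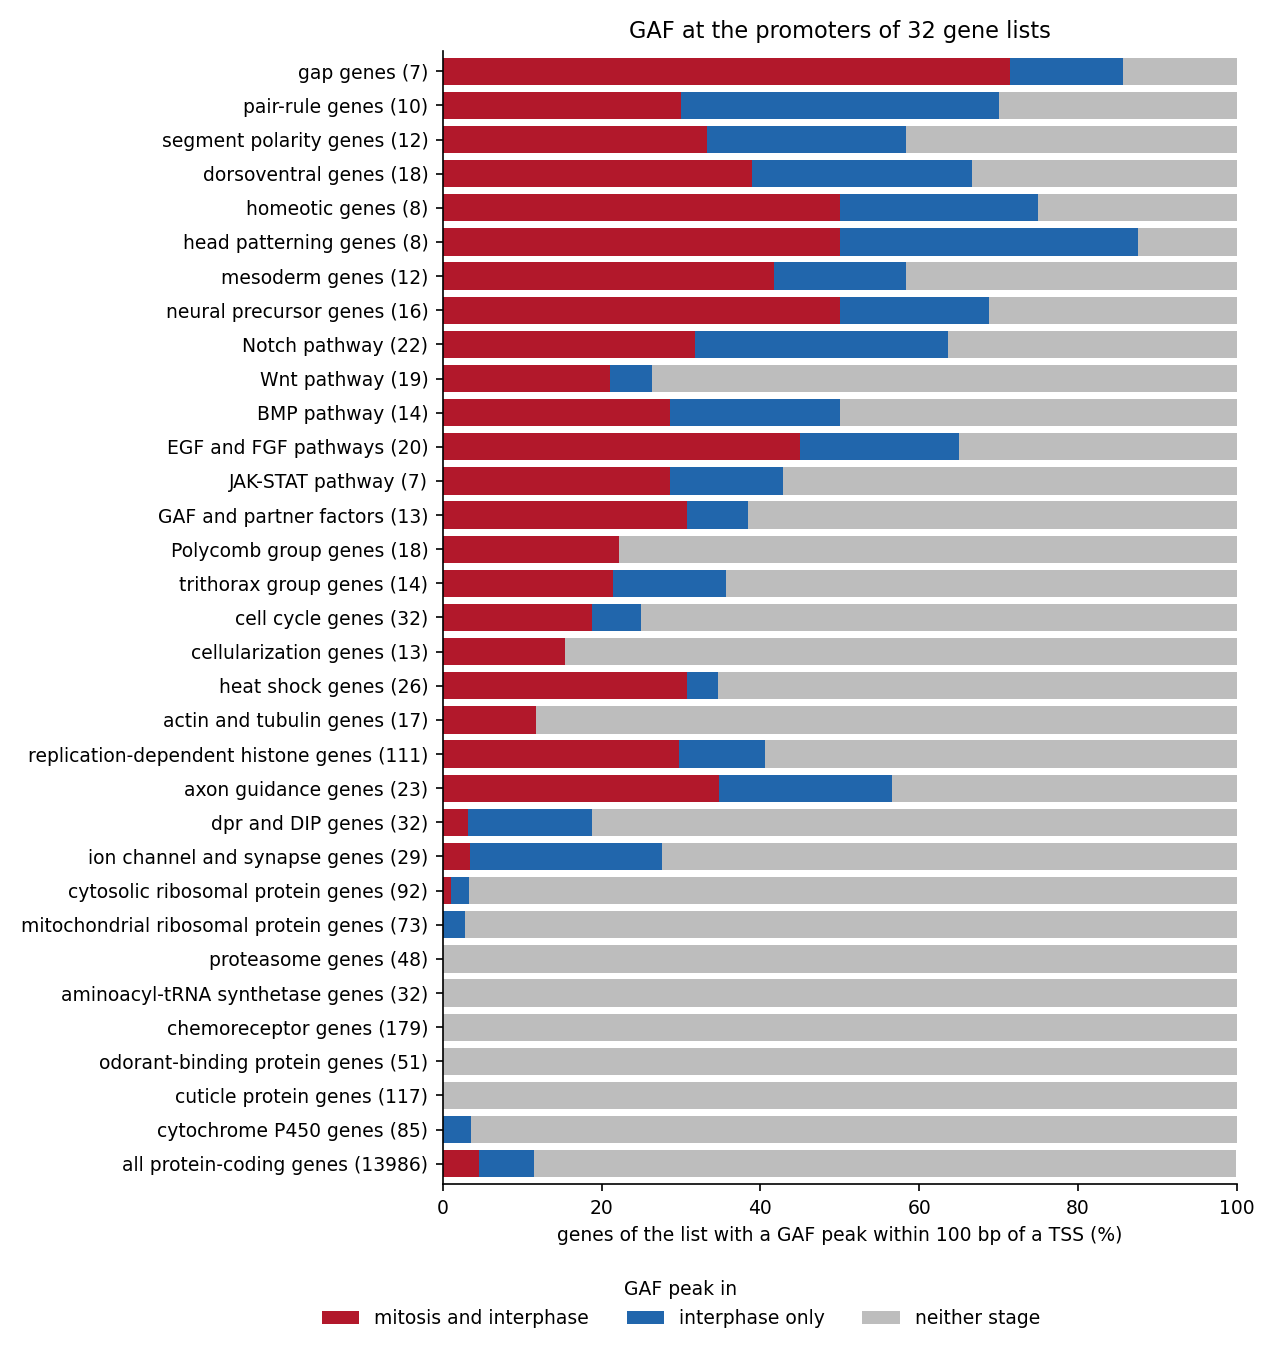
Share of each gene list (x axis, %) with a GAF peak within 100 bp of a TSS in mitosis and interphase (red), in interphase only (blue) and in neither stage (grey), with the number of genes of each list in parentheses and all protein-coding genes at the bottom. Gap genes had 5 retained members of 7, while the proteasome, aminoacyl-tRNA synthetase, chemoreceptor, odorant-binding and cuticle protein lists had no bound member.

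Heat shock promoters are textbook targets of GAF, and 8 of 9 interphase-bound members of a list of 26 were retained. All 6 copies of *Hsp70* were among them, with mitotic peaks of 250 bp (*Hsp70Aa*), 350 bp (*Hsp70Ab* and *Hsp70Bc*), 550 bp (*Hsp70Ba*), 300 bp (*Hsp70Bbb*) and 450 bp (*Hsp70Bb*). Their interphase peaks measured 500 to 850 bp. The copies are near-identical, so reads from 1 copy can be counted at another. *Hsp22*, a small heat shock gene, and *Hsc70-3*, which encodes a chaperone of the endoplasmic reticulum, were also retained.

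The replication-dependent histone genes, which lie in tandem repeats on 2L, divided by the histone they encode. All 45 genes for histones H3 and H4 were bound in interphase, and 17 of 23 H3 genes and 16 of 22 H4 genes were retained. None of the 23 H1, 20 H2A and 23 H2B genes was bound in either stage (a count of 0 of 66 allows a share of up to 4.55%). The H3 and H4 genes of a repeat are transcribed away from each other, and the 22 such pairs shared 1 interval between their TSSs, which took 7 different sequences. The interval of a retained pair, *His3:CG33803* and *His4:CG33909* (chr2L:21419944-21420128), and that of an interphase-only pair, *His3:CG33836* and *His4:CG33887* (chr2L:21489647-21489829), are shown on the plus strand because the GA repeat of both is nearly the same.

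His3:CG33803: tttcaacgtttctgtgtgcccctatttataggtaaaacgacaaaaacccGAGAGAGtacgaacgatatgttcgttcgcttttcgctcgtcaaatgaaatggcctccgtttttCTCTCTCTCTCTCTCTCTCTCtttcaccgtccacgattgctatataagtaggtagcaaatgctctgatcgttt

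His3:CG33836: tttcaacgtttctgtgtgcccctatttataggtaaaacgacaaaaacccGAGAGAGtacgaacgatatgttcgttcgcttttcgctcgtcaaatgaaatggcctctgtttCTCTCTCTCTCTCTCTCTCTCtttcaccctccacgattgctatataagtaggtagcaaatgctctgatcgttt

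Each interval held 4 non-overlapping motifs, and the second sequence was shared by 5 pairs, all of them interphase-only. The retained pair had a mitotic peak of 300 bp and an interphase peak of 400 bp, and the other had an interphase peak of 250 bp. Reads from so similar repeats cannot be assigned to 1 copy, and copies absent from the assembly would add to those present, so the call of a single repeat is uncertain. The histone genes made up 33 of the 640 retained and 12 of the 971 interphase-only genes, and comparisons below are given without them or both ways where they moved a value.

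GAF was also retained at its own gene and at genes of partner factors, with 4 retained and 1 interphase-only of 13. In interphase 38.5% of the list was bound, against 11.5% of all protein-coding genes. The interval of its retained share (37.6 to 96.4%) held the 39.7% of all interphase-bound genes. *Trl*, the GAF gene itself, had a promoter peak of 1250 bp in mitosis and 3450 bp in interphase, with 5 mitotic and 3 interphase peaks over the gene. *lola*, which encodes a related BTB protein, *zld*, which encodes the pioneer factor Zelda, and the corepressor gene *gro* were retained, and *psq*, which encodes another GAGA-binding protein, was bound in interphase only. Of 18 Polycomb group genes 4 were bound, *ph-p*, *ph-d*, *Psc* and *Su(z)2*, and all of these were retained. Among 14 trithorax group genes *kis*, *fs(1)h* and *skd* were retained and *trx* and *ash2* were bound in interphase only, although *trx* held 6 mitotic peaks elsewhere over the gene.

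Cell cycle genes had 6 retained members of 32. These were *stg*, the Cdc25 phosphatase gene that triggers mitosis in the embryo, *CycE*, *Cdk4*, *E2f1*, the cyclin-dependent kinase inhibitor gene *dap* and *trbl*, whose product promotes degradation of String. *grp*, the Chk1 gene, and *Dp* were bound in interphase only. *stg* had a mitotic peak of 150 bp in an interphase peak of 450 bp, and *E2f1* peaks of 750 and 1500 bp. Of 13 cellularization genes *pnut* and *nuf* were retained (15.4% bound), and of 17 actin and tubulin genes *Act5C* and *alphaTub84B* (11.8% bound), shares near the 11.5% of all protein-coding genes.

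Neuronal genes, which are transcribed later in development, were counted in 3 lists. In interphase 56.5% of 23 axon guidance genes, 18.8% of 32 dpr and DIP genes and 27.6% of 29 ion channel and synapse genes were bound. Of all protein-coding genes 11.5% were bound. Axon guidance genes were retained in 8 of 13 interphase-bound cases (35.5 to 82.3%), including *sli*, *NetA*, *NetB* and *Sema1a*. Genes of the dpr and DIP families of synaptic cell surface proteins were retained in 1 of 6 cases (3.01 to 56.4%) and ion channel and synapse genes in 1 of 8 (2.24 to 47.1%). The 3 intervals overlapped, and each held the 39.7% of all interphase-bound genes. The median interphase promoter peak was 600 bp for the guidance genes, against 425 bp for the dpr and DIP genes and 300 bp for the ion channel and synapse genes.

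Housekeeping genes and genes of terminal differentiation were bound rarely. Of a list of 92 cytosolic ribosomal protein genes only *RpL7-like* was retained, and *RpLP2* and *RpS19a* were bound in interphase only. The name of *RpL7-like* marks it only as similar to a ribosomal protein gene, and it shared its interphase peak with the divergent gene *JhI-21*. Of 73 mitochondrial ribosomal protein genes 2 were bound, both in interphase only. None of 48 proteasome genes (a count of 0 allows a share of up to 6.25%), 32 aminoacyl-tRNA synthetase genes (up to 9.38%), 179 chemoreceptor genes (up to 1.68%), 51 odorant-binding protein genes (up to 5.88%) and 117 cuticle protein genes (up to 2.56%) was bound in either stage. Of 85 cytochrome P450 genes 3 were bound, all in interphase only.

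Genes bound by GAF were long. The median gene span was 12.3 kb in retained genes (10.8 to 14.6 kb), 9.04 kb in interphase-only genes (7.98 to 9.92 kb) and 1.94 kb in genes bound in neither stage. Without the histone repeats the medians were 13.5 kb, 9.10 kb and 1.95 kb. The bound share of all genes increased with span in both stages, being 1.10% in mitosis and 2.63% in interphase for genes under 2 kb and 25.2% in mitosis and 52.7% in interphase for genes of 50 kb or more. Among interphase-bound genes apart from the histone repeats, the retained share was 26.8% under 2 kb, 31.0% at 2 to 5 kb, 37.0% at 5 to 10 kb, 39.4% at 10 to 20 kb, 47.1% at 20 to 50 kb and 47.9% at 50 kb or more.

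The number of TSSs moved with length, and among genes with a single TSS the intervals of the bound classes overlapped. Their median span was 5.96 kb in 246 retained genes (4.64 to 7.46 kb) and 5.67 kb in 423 interphase-only genes (4.77 to 6.84 kb), and without the histone repeats it was 7.50 kb (5.97 to 9.99 kb) in 213 retained and 5.86 kb (4.94 to 7.06 kb) in 411 interphase-only genes. By the number of TSSs and without the histone repeats, 34.1% of interphase-bound genes with 1 TSS were retained, 38.3% with 2, 43.9% with 3 or 4 and 49.2% with 5 or more. A gene with more TSSs also has more chances of a mitotic peak at 1 of them. The canonical transcripts were also longer in retained genes, with a median summed exon length of 3552 bp, against 2987 bp (3792 bp and 2995 bp without the histone repeats). Genes without an intron made up 7.58% of retained genes, 4.80% of interphase-only genes and 16.8% of genes bound in neither stage once the histone repeats were left out.

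Each class had very long genes. The longest retained genes were *Ten-a* (292 kb), which encodes a teneurin, *pum* (171 kb), which encodes a translational repressor, *dnc* (167 kb), which encodes a cAMP phosphodiesterase, *mbl* (163 kb), which encodes a splicing regulator, and *Con* (142 kb), which encodes a cell adhesion protein. The longest interphase-only genes were *kirre* (394 kb), which encodes an adhesion protein of fusing myoblasts, *Rbp6* (179 kb), *heph* (169 kb), which encodes a polypyrimidine tract-binding protein, *shakB* (166 kb), which encodes an innexin, and *SKIP* (162 kb). In *shakB* and *SKIP* no mitotic peak lay over the gene, and in *kirre* there were 4, the nearest of which lay 199 bp from a TSS.

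**Figure D3:**
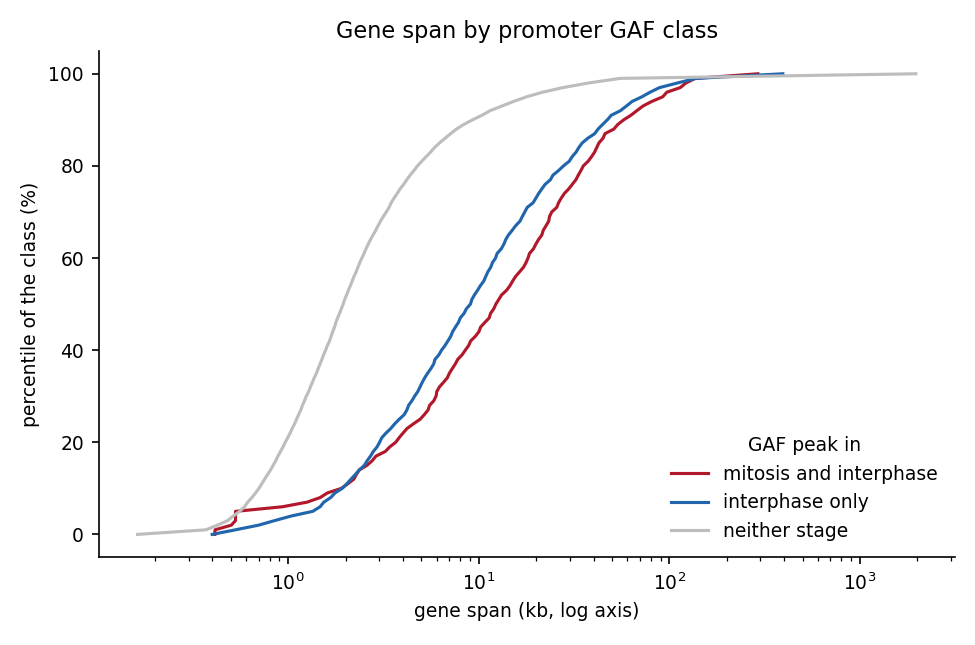
Distribution of gene span (x axis, kb, log scale) as percentile of each class (y axis, %) for genes with a promoter GAF peak in mitosis and interphase, in interphase only and in neither stage. The medians were 12.3, 9.04 and 1.94 kb, and the step of the red line near its lower end holds the repeated histone genes.

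Divergent promoters, in which a TSS on the minus strand lies at most 500 bp left of a TSS on the plus strand, were less common among bound genes. They were found in 19.2% of retained genes, 20.3% of interphase-only genes, 28.3% of genes bound in neither stage and 27.3% of all genes. The difference between interphase-bound genes and genes bound in neither stage was -8.41 points (-10.5 to -6.25). The difference between retained and interphase-only genes was -1.07 points (-4.97 to 2.96). Without the histone repeats, whose H3 and H4 pairs are divergent, the shares were 14.99% and 19.3%, and the difference was -4.30 points (-8.00 to -0.43). The authors' own list of retained peaks was also set against the deposited interphase list, with the histone repeats included. The difference then had the other sign, at 8.46 points (4.41 to 12.2). The like value by the rule used here is the -1.07 points above.

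A bound gene of a divergent pair was often bound at another of its TSSs. Of 230 pairs apart from the histone repeats with at least 1 interphase-bound gene, 117 had an interphase peak within 100 bp of a TSS of the divergent promoter itself, taken as the closest TSSs of the pair, and 113 did not. Of the 117 bound divergent promoters, 51 (43.6%, 35.0 to 52.6%) had an interphase peak at both TSSs and 66 at 1 of them. The median distance between the TSSs was 170 bp for the 51 and 351 bp for the 66, and a single peak reaches both TSSs more readily where these lie close. A mitotic peak lay within 100 bp of both TSSs at 9 of the 51 promoters, of 1 TSS at 15 and of none at 27. Of the 66 promoters with an interphase peak at 1 TSS, 1 had a mitotic peak at a TSS of the pair.

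In the 5 closest pairs whose genes fell in different classes, neither TSS of the divergent promoter had a mitotic peak within 100 bp. The TSSs of *bves*, which encodes a Popeye domain protein, and *Stt3A*, which encodes a subunit of the oligosaccharyltransferase, lay 26 bp apart on X (21053963 and 21053937) under 1 interphase peak of 950 bp, and were 138 and 164 bp from the nearest mitotic peak. *bves* was counted as retained through another TSS. In the other 4 pairs the divergent promoter had no GAF peak within 100 bp, the nearest interphase peak lying between 499 bp (*gish*) and 31183 bp (*CG32833*) away, and the bound gene was bound at other TSSs. These were *gish*, a casein kinase gene that was retained, beside *Mat89Ba*, and the interphase-only genes *peo*, *CG2747* and *twi* beside *Ntmt*, *CG10903* and *CG32833*.

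Retained genes carried more GAF peaks away from the promoters, whose peaks define the classes. Over the gene span and 100 bp to each side, but not within 100 bp of a TSS, retained genes held 0.50 ± 1.14 mitotic and 0.97 ± 1.71 interphase peaks (mean ± SD over 640 genes), and interphase-only genes 0.27 ± 0.67 mitotic and 0.57 ± 1.20 interphase peaks (971 genes). With the promoters the interphase peaks numbered 2.23 ± 1.99 in retained and 1.67 ± 1.36 in interphase-only genes. 3 or more interphase peaks lay over 27.7% of retained and 14.0% of interphase-only genes, a difference of 13.7 points (9.59 to 17.8). An interphase peak outside the promoters was found in 45.0% of retained and 31.8% of interphase-only genes, and in each bin of gene span the share was higher in retained genes, from 13.4% against 8.57% under 2 kb to 81.0% against 68.6% at 50 kb or more. Per 10 kb of gene span the medians were 1.5 and 1.61 interphase peaks. The means went the other way, at 3.19 and 2.74, and the interval of their difference included 0 (-0.0044 to 0.904).

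By the number of interphase peaks over the gene, and without the histone repeats, 31.1% of 897 genes with 1 peak were retained, 42.4% of 356 with 2, 54.7% of 214 with 3 or 4 and 60.6% of 99 with 5 or more. In genes with 1 TSS the shares were 33.6%, 32.7% and 38.5% for 1, 2 and 3 or 4 peaks, and 5 of 8 with more. A mitotic peak elsewhere over the gene was present in 188 interphase-only genes (19.4%). Apart from the bound classes, 773 genes of the main chromosome arms had an interphase peak over the gene but none at a TSS, and 221 of these had a mitotic peak.

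The retained gene with the most mitotic peaks was *Tlk*, which encodes a Tousled-like kinase, with 13 mitotic and 8 interphase peaks over 69.8 kb of X. Its widest mitotic promoter peak measured 700 bp (3779701 to 3780401) and lay in an interphase peak of 4200 bp (3777101 to 3781301), which 5 mitotic peaks overlapped. *Eip75B* had 10 mitotic and 21 interphase peaks, *bun*, which encodes a TSC22 family protein, 10 and 10, and *Mnt*, which encodes a partner of Max, 9 and 16. *E2f1*, which drives S phase genes, had 8 and 10, *fs(1)h*, which encodes a BET bromodomain protein, 7 and 9, and *pum* 7 and 6. *Hr3*, another ecdysone-induced receptor gene, overlaps *CG46321* and shares its 6 mitotic and 5 interphase peaks, and *Ten-a* also had 6 and 5. In all, 22 retained genes held 5 or more mitotic peaks.

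Among interphase-only genes the most interphase peaks were found over *Eip74EF*, an ecdysone-induced ETS gene (3 mitotic and 12 interphase peaks), and over *CHES-1-like*, which encodes a forkhead protein (4 and 11). *ftz-f1*, a nuclear receptor gene, had 2 and 11, the RNA-binding protein gene *Imp* 3 and 10, the insulin receptor gene *InR* 4 and 10 and the neural fate gene *pros* 3 and 10. *SNF4Agamma*, which encodes a subunit of the energy-sensing kinase AMPK, had 9 interphase peaks, 5 of them at promoters, and no mitotic peak, the nearest lying 28188 bp from a TSS. The Notch coactivator gene *mam* had 6 and 9, *shn* 1 and 9 and *Antp* 1 and 8. The TSSs of *ftz-f1*, *pros* and *CHES-1-like* lay 107, 137 and 188 bp from a mitotic peak, just outside the distance that defined the class.

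H4K8ac lay more often at a TSS of retained than of interphase-only genes. Any TSS of a gene counted, also one without a GAF peak, and retained genes had more TSSs (mean 2.36 against 2.10). The H4K8ac peaks of a list lay at least 2000 bp apart, against 200 bp for GAF, so nearby stretches of the mark were joined and a TSS between them counts as marked. In mitosis, 54.2% of retained genes had a TSS within 100 bp of an H4K8ac peak, against 38.6% of interphase-only genes and 42.3% of genes bound in neither stage, and 42.6% of all genes did. The difference between retained and interphase-only genes was 15.6 points (10.6 to 20.5). In interphase the shares were 46.3%, 38.1% and 42.6%, with 42.5% of all genes, and the difference was 8.14 points (3.22 to 13.05). Interphase-only genes were below genes bound in neither stage in mitosis (-3.72 points, -6.86 to -0.50) and in interphase (-4.47 points, -7.60 to -1.26).

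Leaving out the histone repeats lowered the difference in mitosis and raised it in interphase. Of all retained genes 13.4% had an H4K8ac peak in mitosis only, against 4.74% of interphase-only genes and 3.55% of genes bound in neither stage, and without the histone repeats the shares were 9.06%, 3.75% and 3.05%. The difference between retained and interphase-only genes without the repeats was 13.9 points in mitosis (8.83 to 18.8) and 10.1 points in interphase (5.03 to 15.1). The difference also moved with the width of the GAF peak in both stages. Outside the repeats, 40.6% of retained and 39.1% of interphase-only genes had mitotic H4K8ac with a widest interphase GAF peak of 450 to 600 bp. The shares were 45.8% and 48.1% with 650 to 900 bp, and 64.4% and 50.6% with 950 bp or more. For interphase H4K8ac they were 39.1% and 39.1%, 40.7% and 46.5%, and 61.8% and 51.7% in the same bins.

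Single genes of the lists showed each combination. *sna*, *scyl* and *hb* had H4K8ac at a TSS in both stages. *esg*, *Kr*, *kni*, *eve* and *dpp* had it in mitosis only, and *chrb* and *rho* in interphase only. For *esg* the study states the mark in interphase as well, without limiting it to 100 bp around a TSS. Neither stage had H4K8ac within 100 bp of a TSS of *tll*, *Delta*, *en*, *Ubx*, *abd-A*, *Abd-B* or the 6 copies of *Hsp70*, all of which kept GAF. Of the interphase-only genes *Hsp26*, *hry* and *odd* had H4K8ac in both stages and *Antp*, *aos* and *tin* in neither.

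**Figure D4:**
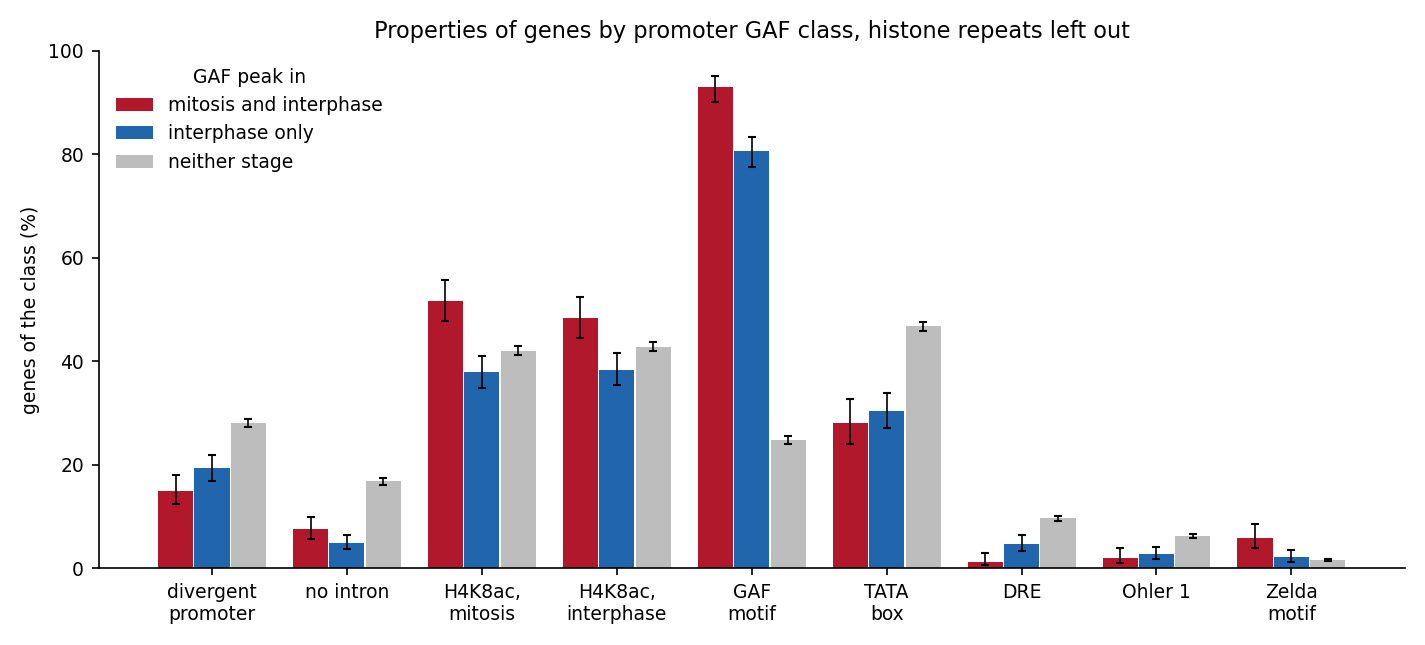
Share of genes (y axis, %) with a divergent promoter, without an intron, with an H4K8ac peak at a TSS in mitosis or in interphase, and with each of 5 promoter motifs, for genes with a promoter GAF peak in mitosis and interphase (left bars), in interphase only (middle) and in neither stage (right). Histone repeats are left out, error bars are 95% Wilson intervals, and the GAF motif (GAGAG) was found at 93.0, 80.6 and 24.8% of promoters.

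GAF motifs at the promoter differed between the classes. In a window of 250 bases before to 50 bases after the canonical TSS, GAGAG occurred on either strand at 93.5% of 431 retained promoters, 80.9% of 729 interphase-only promoters and 24.7% of promoters bound in neither stage, with 30.1% of all promoters. Only genes whose canonical TSS was itself bound in the defining stage were counted. This filter was stricter for retained genes, which needed a mitotic peak there, than for interphase-only genes, which needed an interphase peak. With an interphase peak or a peak of the authors' retained list there instead, 500 retained genes were counted. Of these 89.2% held the motif, with 3.04 ± 1.93 motifs, so part of the difference came with the filter. The retained promoters held 3.33 ± 1.85 motifs and the interphase-only promoters 1.89 ± 1.58 (mean ± SD over genes). Under the stricter filter and without the histone repeats, 16.8% of the counted genes with 0 motifs were retained, 16.3% with 1, 32.7% with 2, 48.8% with 3 or 4 and 67.8% with 5 or more.

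The number of motifs was also read for the genes of that filter within bins of peak width, outside the histone repeats. At 300 to 400 bp only 4 retained genes could be counted, with 2.25 ± 2.06 motifs, against 2.15 ± 1.62 in 203 interphase-only genes. Genes with a widest interphase promoter peak of 450 to 600 bp held 3.06 ± 1.84 motifs when retained (99 genes) and 1.94 ± 1.67 when interphase-only (172 genes). At 650 to 900 bp the values were 3.59 ± 1.91 and 1.46 ± 1.45, and at 950 bp or more 3.02 ± 1.91 and 1.17 ± 1.49. Among interphase-only genes the mean in the window was thus lower at the widest peaks than at those of 300 to 400 bp. The window was fixed at the canonical TSS, whereas the widest peak could reach beyond it or lie at another TSS. The means therefore do not give the number of motifs under the peak. The authors' own list of retained peaks was also set against the deposited interphase list. By it 79.3% of retained and 86.4% of interphase-only promoters held the motif, so the difference in that share had the other sign. The mean numbers were 2.32 ± 1.92 and 2.09 ± 1.59. These genes needed an interphase peak or a peak of the authors' list at the canonical TSS. Under that filter 89.2% of the 500 genes retained by the rule used here held the motif.

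Other core promoter motifs were searched in the same window. The string of the TATA box (TATAAA) was found at 32.5% of retained, 31.4% of interphase-only and 47.0% of other promoters (45.3% of all). Without the histone repeats it was found at 28.1% of retained and 30.4% of interphase-only promoters, and the difference of -2.26 points (-7.70 to 3.38) had the other sign. The DNA replication-related element (TATCGATA), a motif of housekeeping promoters, was found at 1.2%, 4.53% and 9.56% (8.93% of all), and the difference between retained and interphase-only promoters was -3.37 points (-5.25 to -1.37). The Ohler 1 motif (GGTCACACT), also typical of housekeeping promoters, was found at 1.86%, 2.61% and 6.16% (5.85% of all). The Zelda motif (CAGGTAG), which marks early zygotic enhancers and promoters, was found at 5.34%, 2.06% and 1.56% (1.72% of all). The difference between retained (23 with the motif) and interphase-only promoters (15 with it) was 3.28 points (1.09 to 5.95). Within 100 bp of the TSS the motif was found at 1.62%, 1.10% and 1.04%, and the intervals of the bound classes overlapped. TATAAA was found there at 19.5%, 17.1% and 30.4% (28.9% of all). All motifs were matched as strings on both strands at any position in the window, so a match need not be a working site. The palindromic TATCGATA matches both strands at once.

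Between 10.8% (3R) and 12.2% (2R) of the genes of each large arm and X were bound in interphase. The retained share of these was 44.6% on X, 39.8% on 2L without the histone repeats, 38.5% on 3L, 36.7% on 3R and 36.5% on 2R, and the interval on X (38.5 to 50.8%) overlapped those of the autosomal arms. On the fourth chromosome 2 of 7 interphase-bound genes were retained, and of 23 genes on Y 0 were bound, which allows a share of up to 13.04%.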

How the data were processed

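Chromatin from sorted mitotic and interphase embryos was immunoprecipitated for GAF or H4K8ac and sequenced with an input for each sample (18 samples). Per the labels and the methods of the study, the authors trimmed reads with Cutadapt 1.16 (quality 20, at least 30 bp), aligned them to dm6 with Bowtie2, computed input-subtracted coverage scaled to read number in bins of 50 bp, averaged the replicates and called peaks above a threshold (100 for GAF with runs of at least 50 bp and gaps of at most 200 bp, 22 for H4K8ac). For H4K8ac the methods state this run and gap too, whereas both deposited lists are named for a run of 30 and a gap of 2000 and hold no peaks less than 2000 bp apart. The deposited lists hold the start and end of each peak in bp and no score or other value, so a lower peak in mitosis and a lost one look alike, and how reads from repeats were placed is not given in the sources used here.

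Genes and TSSs were taken from the Ensembl 115 annotation of the same assembly (13966 of 13973 symbols had identical coordinates in RefSeq). Python 3.11.15, NumPy 2.4.6 and SciPy 1.17.1 were used. Shares have Wilson intervals, differences Newcombe intervals and medians order-statistic intervals, at 95%, and the counting steps were tested on simulated data. No test over genes was run. Genes were named by a fixed rule, namely every mitosis-only gene, the 10 genes of each class with the most peaks, the 5 longest of each class, the 5 closest divergent pairs of different class, members of the gene lists, and genes named by the study. The members and lists were chosen with earlier results of these data known. A list of H4K8ac peaks found in both stages was not used.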

Additional observations from a re-analysis of the deposited data

How the results depend on the processing

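No paired analysis was possible because the lists pool the replicates, and for the same reason no replicate could be left out. Of 76 alternative values, 48 stayed within the interval of the reported value or, for counts, within 1.5 times of it, 24 moved further and 4 reversed. The retained share (39.7%) was 34.4% with the TSS inside the peak, 35.5% with canonical TSSs only and 24.8% with peaks of at least 400 bp in both lists (289 genes retained). It was 61.4% with only the longest interphase peaks, as many as there are mitotic peaks (368 interphase-only and 60 mitosis-only genes). With the authors' list of retained peaks set against the deposited interphase list, 2 lists with different peaks, it was 69.7% (1177 retained and 512 interphase-only genes). Genes bound in mitosis only numbered 2 with the TSS inside the peak, 11 at 500 bp and 0 on the main arms. The median gene span of retained genes exceeded that of interphase-only genes by 3250 bp, by 294 bp for genes with 1 TSS (1636 bp without the histone genes), while summed exon length differed by 565 bp. By the authors' list, the difference for divergent promoters was 8.46 points, for mitotic H4K8ac 23.2 points and for interphase H4K8ac 16.9 points. For GAGAG it was -7.09 points (reversed), against 12.6 points as reported and 18.5 points within 100 bp of the TSS. The -7.09 points counted genes with an interphase peak or a peak of the authors' list at the canonical TSS. The other 2 values needed a mitotic peak there for retained genes, so filter and list both differed. The excess of patterning, fate and signalling genes was -2.51 points at peak widths of 100 to 250 bp, -11.1 points at 300 to 400 bp (both reversed), 12.2 points at 450 to 600 bp and 6.63 points at 950 bp or more, and without the histone genes 0, -2.93 (reversed), 12.6 and 6.63 points. The causes were not tested. The alternatives by the authors' list on these properties, by peak width and without histone genes were chosen after seeing the data. The lists hold no read counts, so the reads behind each peak are not known, and a gene without a mitotic peak may still bind GAF below the threshold.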
